A study of Mus musculus with 12 samples.

Results

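The genes described here are 44 genes of the cell division cycle and of DNA replication, chosen by gene symbol. Of these, 21 belong to the G1/S part of the cycle, when a cell commits to division and copies its DNA, and 23 belong to the G2/M part, when it enters mitosis and divides. All 44 were found among the 18876 genes listed in any library, and all 44 were listed in each of the 12 libraries. All 44 also passed the filter on low counts and were among the 13967 genes tested.

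The libraries are RNA-seq of primary oligodendrocyte progenitor cells (OPCs) from wild-type mouse brain, the dividing glial cells that mature into myelin-forming oligodendrocytes. Each of the 4 groups had 3 libraries and was treated for 12 h. The vehicle group received DMSO, and the other 3 groups all received 50 µM hemin, the oxidised, iron-containing form of heme. One of these received nothing else. The next had interleukin-10 (IL-10) at 10 ng/mL besides, a cytokine whose receptor activates the transcription factor STAT3. The last had IL-10 at the same dose together with stattic at 2.5 µM, an inhibitor of STAT3. IL-10 or stattic without hemin was not analysed here. The labels give neither the age of the mice nor whether the replicates came from separate cultures, so each p-value reflects only how these samples vary, and that spread may be technical.

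In G1, growth signals raise the D-type cyclins, which activate CDK4 and CDK6 and so release E2F transcription factors from the retinoblastoma protein. E2F then drives the genes of cyclin E, of the MCM helicase and of nucleotide synthesis, and the cell copies its DNA. Later in the cycle, the MuvB complex, with B-MYB and FOXM1, drives the genes of mitosis, such as those of cyclin B, the mitotic kinases and the kinesin motors of the spindle. OPCs divide in culture in response to mitogens such as PDGF and leave the cycle when they differentiate.

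The promoters of the 2 classes are known to differ in short sequence elements, so RefSeq promoter windows (mouse build GRCm38.p6, 250 bases before to 50 bases after the start site) were searched on both strands for 4 of these, each counted separately whether or not its bases overlapped with another. Windows were present for 35 of the 44 genes, 17 of the G1/S and 18 of the G2/M group. The genes Ccna2, Foxm1, Kif20a, Ccnd2, Ccnd1, Mcm4, Ccne2, Tpx2 and Aurkb were not matched. The letters TTTGAA, the core of the cell cycle homology region (CHR) that MuvB complexes bind, were found in 14 of the 18 G2/M windows and in 1 of the 17 G1/S windows (Mcm2), against 20.2% of all 27025 genes and 17.9% of all 32851 windows. CCAAT, the box bound by NF-Y, was in 16 of 18 G2/M windows and 10 of 17 G1/S windows, against 41.1% of all genes and 37.4% of windows. A set of 4 E2F words (TTTCCCGC, TTTGGCGC, TTTCGCGC and TTTGCCGC) was in 6 of 17 G1/S windows (Cdk2, Cdc6, Mcm3, Mcm5, Mcm6 and Mcm7) and in 1 of 18 G2/M windows (Cdk1), against 2.61% of all genes and 2.26% of windows.

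The windows of 10 G2/M genes around the TTTGAA nearest the start site are printed to set the genes that were lower in at least one treatment (Plk1, Bub1b, Mki67, Kif11, Cenpf and Anln) beside the 4 that were not lower with hemin (Ccnb2, Cdc20, Kif23 and Prc1). Each is 30 bases of the strand of the gene, 5′ to 3′, with the nearest element in capitals (TTCAAA where it lies on the opposite strand). The stretch of Anln also holds a TTTGAA on the strand of the gene, at position 29, left in lower case.
Plk1, chr7:122159453-122159482, plus strand: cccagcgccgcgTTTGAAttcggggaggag
Bub1b, chr2:118598231-118598260, plus strand: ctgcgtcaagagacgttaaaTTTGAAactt
Mki67, chr7:135716460-135716489, minus strand: ccgccgttttggTTTGAAtcgggcgggctg
Kif11, chr19:37376351-37376380, plus strand: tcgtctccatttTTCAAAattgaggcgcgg
Cenpf, chr1:189688067-189688096, minus strand: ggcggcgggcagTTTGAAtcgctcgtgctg
Anln, chr9:22389168-22389197, minus strand: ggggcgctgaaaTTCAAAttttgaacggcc
Ccnb2, chr9:70421533-70421562, minus strand: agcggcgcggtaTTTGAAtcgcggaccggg
Cdc20, chr4:118437344-118437373, minus strand: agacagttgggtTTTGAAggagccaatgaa
Kif23, chr9:61946780-61946809, minus strand: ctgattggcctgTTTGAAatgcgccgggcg
Prc1, chr7:80294434-80294463, plus strand: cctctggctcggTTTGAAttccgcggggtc

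In 13 of the 14 genes the nearest TTTGAA lay within 50 bases of the start site. The nearest matches ran from position -98 in Mki67 to 41 in Bub1b, with a median of 3. The related letters TTCGAA were in 3 of 18 G2/M windows (Bub1, Bub1b and Top2a) and 1 of 17 G1/S windows (Mcm7), against 1.8% of all genes. At least 2 CCAAT boxes were in a window of Ccnb1, Ccnb2, Cdk1, Aurka, Bub1, Cdc20, Cenpf, Ect2, Mki67 and Top2a. The share of all genes with at least 2 was not counted. The 250 bases before the start of Top2a are printed because they held many of these elements, with 2 TTTGAA, 2 TTCGAA and 6 CCAAT on either strand, all in capitals (ATTGG and TTCAAA are the opposite strand).
Top2a, chr11:99024190-99024439, minus strand: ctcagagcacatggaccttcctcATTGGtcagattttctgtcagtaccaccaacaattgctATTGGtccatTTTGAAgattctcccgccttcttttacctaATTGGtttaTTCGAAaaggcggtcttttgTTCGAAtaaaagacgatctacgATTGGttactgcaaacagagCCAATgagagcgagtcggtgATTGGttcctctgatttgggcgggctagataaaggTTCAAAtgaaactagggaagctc

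Windows of 3 G1/S genes show the E2F word nearest the start site. With hemin plus IL-10, the fall of Cdc6 and Mcm3 passed an adjusted p of 0.05 and that of Mcm7 did not.
Cdc6, chr11:98908001-98908030, plus strand: ggccggtggagaGCGGGAAAtcgcctgggg
Mcm3, chr1:20820276-20820305, minus strand: taaacttccgtgGCGGGAAAacttgggaag
Mcm7, chr5:138171850-138171879, minus strand: tgggtgacgacgTTTCGCGCcaatttcggt

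These matches describe letters in a window and not bound sites. The E2F word of Cdc6 and Mcm3 is read on the opposite strand, and that of Mcm7 on the strand of the gene. Printed G2/M genes that fell with hemin and printed ones that did not all carried TTTGAA, since they were picked for holding it.

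In vehicle-treated OPCs all 44 genes were expressed. Levels that allow for transcript length, in FPKM (the authors' values, scaled for library size and transcript length), were highest for Cdk4 (295.6), Pcna (289.6), Ccnd2 (254.9), Ccnd1 (152.2), Top2a (125.9) and Rrm2 (111.7), as means of 3 libraries. They were lowest for Tyms (9.95), E2f1 (7.30), Cdc6 (6.95) and Cdk6 (2.26). Of the 43 neighbouring pairs in this order, 42 overlapped over the 3 vehicle libraries, the exception being Cdc6, which ranged from 4.43 to 10.9 FPKM, above Cdk6, from 1.39 to 3.63. CDK4 and CDK6 are the partner kinases of the D-type cyclins, so on this scale the first exceeded the second in mRNA level in these cells.

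Sequencing depth was even, from 9404448 to 10266653 expected counts per library, and the lowest count of a member in any library was 14 (Tk1), the highest 19138 (Ccnd2). Some libraries stood apart. In replicate 3 with hemin, IL-10 and stattic, the fifth of genes with the shortest transcripts lay 1.09 above and the fifth with the longest lay 0.83 below the vehicle mean (medians, log2 scale: 1.09 and -0.83), against 0.45 and -0.45 in hemin replicate 1 and at most 0.27 and no lower than -0.20 in the other hemin-treated libraries. In that stattic library, the shorter members of the G2/M group had a median of -0.35 and the longer ones -1.31. Vehicle replicate 3 was the highest of the vehicle libraries for 43 of the 44 members and the highest of all 12 libraries for 37. Results that rest on these libraries are given with and without them.

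**Figure D1:**
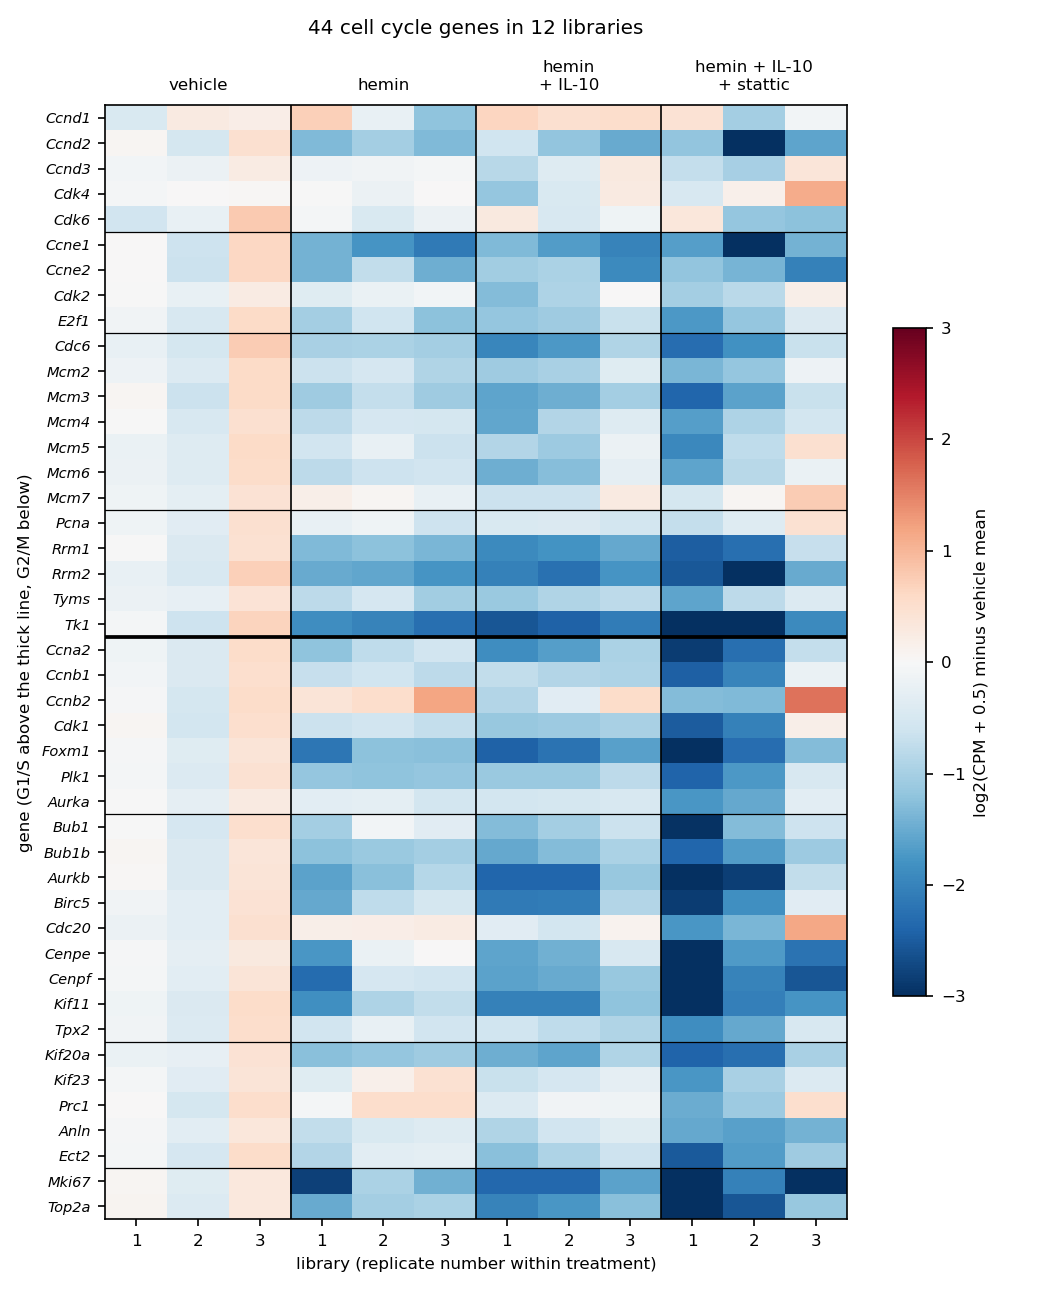
Each cell is the level of 1 gene (rows, grouped by role) in 1 library (columns) as log2(CPM + 0.5) minus the mean of the 3 vehicle libraries, where CPM is the count scaled for library size and composition by TMM. Blue is lower and red is higher, and colours stop at -3 and 3. Most rows are blue in the 9 hemin-treated libraries, with the darkest cells in replicates 1 and 2 with hemin, IL-10 and stattic, while Ccnd1, Cdk4, Mcm7, Ccnb2, Cdc20 and Prc1 have red cells in some of them.

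Levels below are CPM, counts scaled for library size, and changes are fitted log2 differences with their standard errors (SE). With hemin alone, 10 of the 44 genes fell and none rose, at an adjusted p under 0.05 over all genes tested. Of all 13967 genes tested, 9.15% fell. The 10 genes were 5 of the 21 G1/S genes (Ccne1, Ccne2, Rrm1, Rrm2 and Tk1) and 5 of the 23 G2/M genes (Foxm1, Plk1, Bub1b, Kif20a and Mki67). The median log2 change was -0.74 over the 44 genes, -0.73 over the G1/S and -0.75 over the G2/M genes, against 0.03 over all genes tested. The fitted change was below 0 for 40 of the 44 genes (48.4% of all genes), and 28 did not overlap between the hemin and the vehicle libraries, all lower (24.5% of all genes were lower and 25.6% higher without overlap).

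These counts depend on single libraries. The 10 calls became 3 without vehicle replicate 1, 1 without vehicle replicate 3, 3, 2 and 4 without hemin replicates 1, 2 and 3, and 19 without replicate 3 with stattic, which enters this fit through the shared estimate of spread. Of all genes, 3.98%, 4.47%, 6.37%, 3.11%, 6.28% and 13.8% fell in these fits, in that order. Without vehicle replicate 3 the median change of the 44 genes was -0.44, and 36 were below 0. In bulk RNA, fewer cells of a type and less RNA per cell cannot be told apart.

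**Figure D2:**
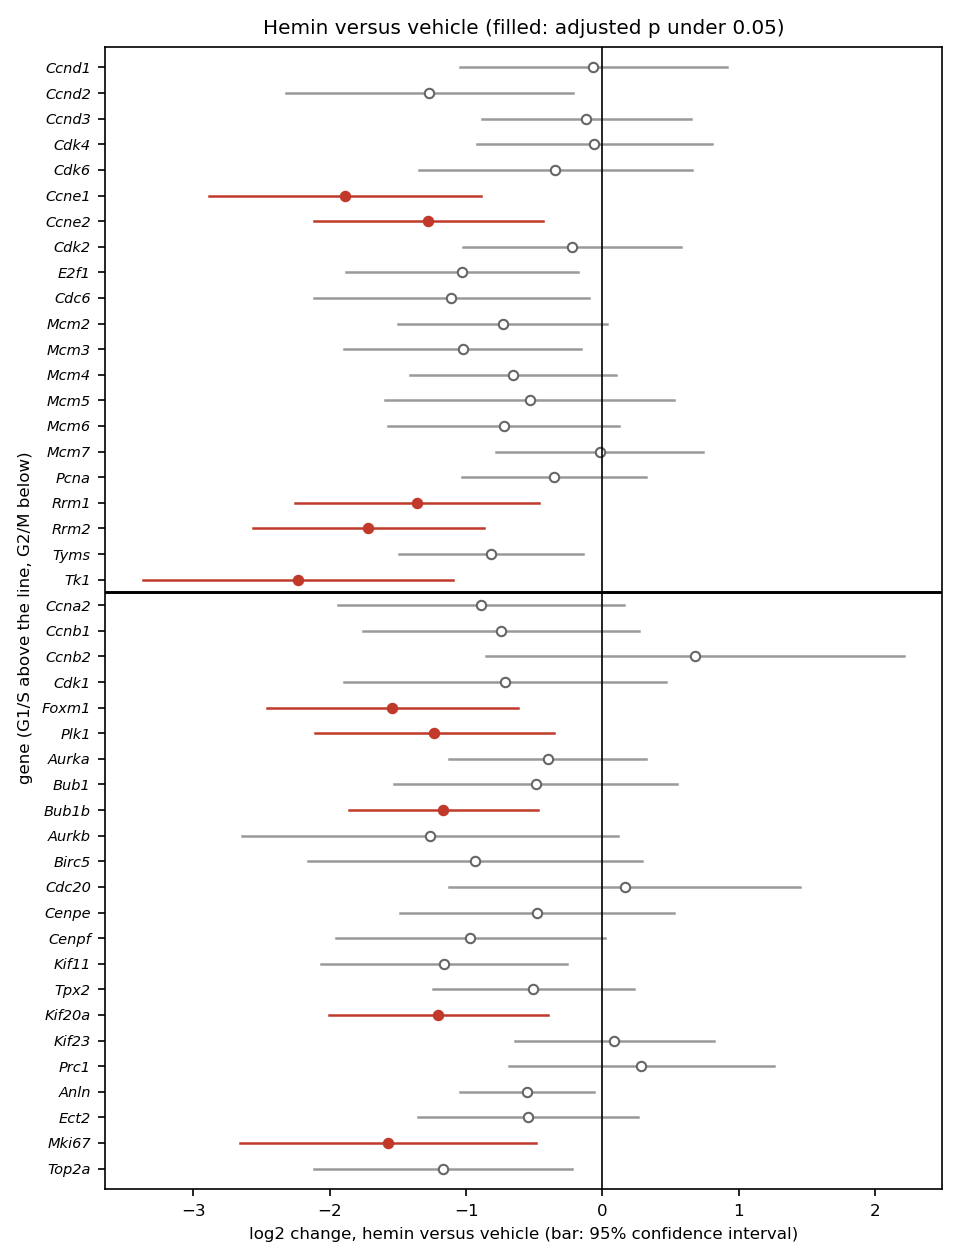
Fitted log2 change of each gene between hemin and vehicle (points), with its 95% confidence interval (bars), in the order of roles used in the text. Filled red points passed an adjusted p of 0.05; the 10 of them lie between -2.23 (Tk1) and -1.17 (Bub1b), and only Ccnb2, Cdc20, Kif23 and Prc1 lie above 0.

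Among the D-type cyclins and their kinases, which receive the growth signal, none of 5 passed the test with hemin (median -0.12). Ccnd1, which encodes cyclin D1, stood at 359, 593 and 570 CPM in vehicle replicates 1 to 3, 816, 423 and 215 with hemin, 775, 686 and 709 with hemin and IL-10, and 672, 243 and 470 with stattic added. The 3 hemin libraries spread over a range wider than the vehicle group, and no direction held (log2 change -0.07, SE 0.45, edgeR adjusted p = 0.931). The hemin and IL-10 group was the only treated group that lay wholly above vehicle (0.51, SE 0.45, adjusted p = 0.451).

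Ccnd2, the cyclin D2 gene and the most counted of the 44, stood at 1362, 914 and 1822 CPM in vehicle, 526, 651 and 524 with hemin, 868, 578 and 461 with hemin and IL-10, and 574, 113 and 440 with stattic added. All 9 treated libraries lay below all 3 vehicle libraries. The difference missed the threshold with hemin (-1.27, SE 0.48, adjusted p = 0.0814) and with hemin and IL-10 (-1.10, SE 0.48, adjusted p = 0.122), and passed it with stattic added (-1.86, SE 0.49, adjusted p = 0.0188). This last call was lost with a correction for transcript length (-1.44, adjusted p = 0.0586), in a fit of these 2 groups alone (adjusted p = 0.0699) and without vehicle replicate 1 (adjusted p = 0.0519) or 3 (adjusted p = 0.0681).

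Cdk4 was level between vehicle (333, 353 and 360 CPM) and hemin (346, 306 and 352 CPM), with a log2 change of -0.06 (SE 0.40, 95% confidence interval -0.92 to 0.80, edgeR adjusted p = 0.93). It then spread widely, over 155, 255 and 420 CPM with IL-10 and 248, 385 and 753 CPM with IL-10 and stattic, the highest value being that of the stattic library with the steep length trend. Ccnd3, for cyclin D3, had means of 68.1 ± 10.8 CPM in vehicle and 62.7 ± 2.47 with hemin (SD, n = 3; change -0.12, SE 0.35, edgeR adjusted p = 0.843). Cdk6 had means of 24.3 ± 12.9 and 19.1 ± 2.70 CPM, and neither gene passed the test in any comparison.

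Both cyclin E genes, whose products activate CDK2 at the start of S phase, fell with hemin. Ccne1 stood at 29.6, 19.1 and 45.7 CPM in vehicle, 10.8, 8.30 and 6.41 with hemin, 11.4, 8.84 and 6.97 with hemin and IL-10, and 9.01, 2.93 and 10.7 with stattic added. No treated library reached the lowest vehicle library. Its log2 change with hemin was -1.89 (SE 0.46, edgeR adjusted p = 0.0146), a call kept in 10 of 12 fits that each left out a library, and lost without vehicle replicate 3 (adjusted p = 0.0646) or hemin replicate 2 (adjusted p = 0.0563).

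Ccne2 stood at 43.9, 27.6 and 67.6 CPM in vehicle and 16.1, 25.8 and 15.4 with hemin, a change of -1.28 (SE 0.39, edgeR adjusted p = 0.035) that was lost without vehicle replicate 1 or 3 or any 1 of the hemin libraries (adjusted p from 0.0505 to 0.158), and without stattic replicate 3 and hemin replicate 1 together (adjusted p = 0.0675). E2f1, the transcription factor released by CDK4 and CDK6, stood at 15.6, 12.0 and 25.3 CPM in vehicle and 7.99, 11.0 and 6.91 with hemin (-1.03, SE 0.39, edgeR adjusted p = 0.0814). The groups did not overlap, but the difference missed the threshold. The partner kinase Cdk2 had means of 42.1 ± 6.79 CPM in vehicle and 36 ± 3.67 with hemin (SD, n = 3).

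None of the 7 genes that license replication origins passed the test with hemin, with a median change of -0.73. They are Cdc6, which loads the helicase, and Mcm2 to Mcm7, its 6 subunits. Mcm2 stood at 125, 103 and 204 CPM in vehicle, 88.2, 97.3 and 74.0 with hemin, 65.4, 70.3 and 106 with hemin and IL-10, and 52.6, 61.4 and 124 with stattic added (hemin against vehicle -0.73, SE 0.35, edgeR adjusted p = 0.159). Its hemin libraries lay below its vehicle libraries, while the highest library of each of the other treatments overlapped with vehicle.

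The subunits differed in size of change although their proteins form 1 ring. Mcm3 had the largest fitted change of the 6 with hemin (-1.03) and means of 136 ± 55.5 CPM in vehicle and 66.8 ± 9.55 with hemin. Mcm7 had the smallest (-0.02), with 154 ± 42.9 and 152 ± 21.9 CPM (SD, n = 3). Mcm4, Mcm5 and Mcm6 lay between, at -0.66, -0.53 and -0.73, and Cdc6 was at -1.11. The differences between these genes were not tested.

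Of the 5 clamp and nucleotide supply genes, 3 fell with hemin (median -1.36). Rrm2 and Rrm1 encode the subunits of ribonucleotide reductase, which makes deoxynucleotides, and Tk1 encodes thymidine kinase. Rrm2 stood at 172, 143 and 328 CPM in vehicle, 70.1, 67.4 and 58.0 with hemin, 48.9, 42.3 and 58.1 with hemin and IL-10, and 34.2, 24.4 and 70.3 with stattic added. The highest treated library was below the lowest vehicle library by about 2 times (143 against 70.3 CPM). Rrm2 fell by 1.72 on the log2 scale with hemin (SE 0.39, edgeR adjusted p = 0.0111), and was the only member whose call with hemin was kept in all 12 fits that each left out a library (highest adjusted p 0.0465, without vehicle replicate 3).

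Tk1 was at 23.3, 15.6 and 38.8 CPM in vehicle, 6.25, 5.64 and 4.61 with hemin, 3.67, 4.11 and 5.25 with hemin and IL-10, and 1.47, 1.47 and 6.12 with stattic added. It had the largest fitted change of the 44 in each comparison with vehicle, -2.23 with hemin (SE 0.52, edgeR adjusted p = 0.0124), -2.57 with IL-10 added (SE 0.53, adjusted p = 0.00725) and -3.11 with IL-10 and stattic added (SE 0.55, adjusted p = 0.00318). The call with hemin was lost in 1 of 12 fits, without vehicle replicate 3 (adjusted p = 0.0533). Tk1 was also the least counted member, so its levels with stattic rest on few reads.

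Rrm1 stood at 265, 199 and 369 CPM in vehicle and 107, 114 and 104 with hemin, with no overlap (-1.36, SE 0.41, edgeR adjusted p = 0.0348). The call was lost without vehicle replicate 1 or 3 or any 1 of the hemin libraries (adjusted p from 0.0736 to 0.119), and with a length correction (adjusted p = 0.0625). Tyms, for thymidylate synthase, had means of 35.4 ± 9.53 and 20.1 ± 3.78 CPM without overlap (-0.81, SE 0.31, edgeR adjusted p = 0.0814). Pcna, for the clamp that holds the polymerase on DNA, stood at 269, 229 and 404 CPM in vehicle and 251, 265 and 190 with hemin, with overlap (-0.35, SE 0.31, edgeR adjusted p = 0.448).

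**Figure D3:**
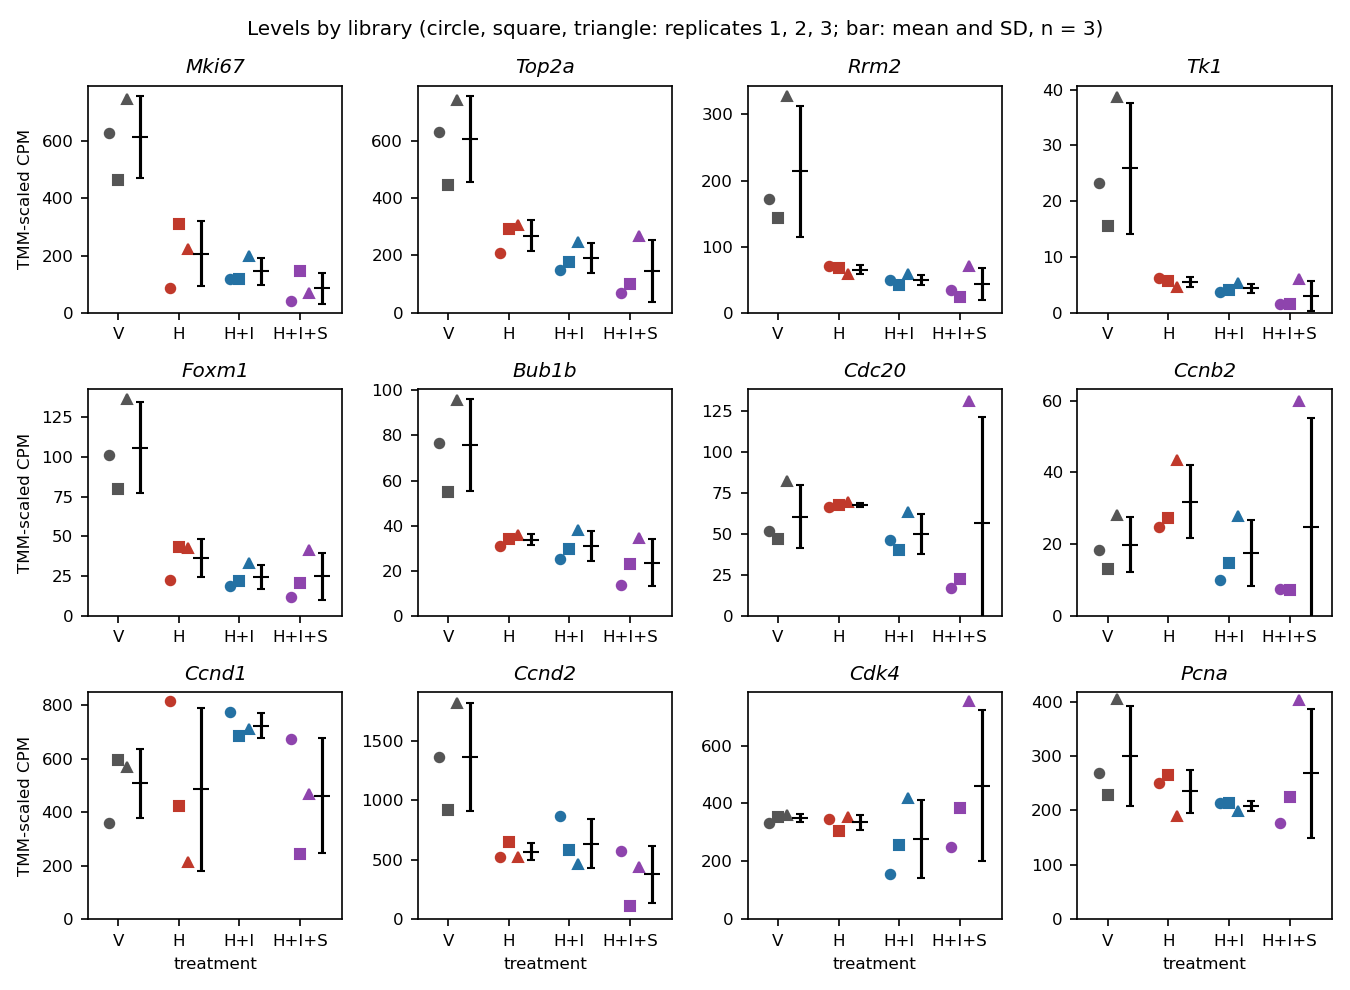
Levels of 12 genes in TMM-scaled CPM in each library (circles, squares and triangles for replicates 1, 2 and 3) for vehicle (V), hemin (H), hemin with IL-10 (H+I) and hemin with IL-10 and stattic (H+I+S); bars are the mean and SD, n = 3, and stop at 0. In Mki67, Top2a, Rrm2, Tk1, Foxm1, Bub1b and Ccnd2 every treated library lies below every vehicle library. In Ccnd1, Cdk4, Cdc20, Ccnb2 and Pcna the hemin group overlaps with vehicle. With hemin and IL-10, Pcna lies below and Ccnd1 above all vehicle libraries.

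Of the 7 genes of mitotic entry, 2 fell with hemin (median -0.75). Foxm1, the transcription factor of the late cell cycle, stood at 101, 80.0 and 136 CPM in vehicle, 22.6, 43.7 and 42.9 with hemin, 18.8, 21.9 and 33.3 with hemin and IL-10, and 12.2, 20.9 and 41.4 with stattic added. The fall with hemin was 1.54 on the log2 scale (-1.54, SE 0.42, edgeR adjusted p = 0.0241), kept in 8 of 12 fits and lost when vehicle replicate 1, vehicle replicate 3, or replicate 1 or 2 with hemin was left out (adjusted p from 0.0548 to 0.0824). Plk1, a kinase that starts mitosis, stood at 62.5, 48.6 and 89.5 CPM in vehicle and 28.9, 27.6 and 29.0 with hemin (-1.23, SE 0.40, edgeR adjusted p = 0.0473), kept in only 3 of 12 fits, those without a stattic library (adjusted p from 0.0523 to 0.16 in the rest).

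Cyclins A2 and B1 and the kinase they activate had lower means that did not pass. Ccnb1 stood at 91.3, 71.8 and 138 CPM in vehicle and 59.7, 63.5 and 56.2 with hemin (-0.75, SE 0.47, edgeR adjusted p = 0.274). Cdk1 stood at 90.0, 59.4 and 123 CPM in vehicle and 55.2, 58.2 and 52.4 with hemin (-0.72, SE 0.54, edgeR adjusted p = 0.374). In both genes the groups were apart by a narrow margin. Ccna2 had means of 162 ± 59.5 and 87.1 ± 19.0 CPM and Aurka, a centrosome kinase, 36 ± 6.58 and 27.2 ± 2.76 CPM (SD, n = 3).

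Ccnb2, for cyclin B2, was the member with the highest fitted change with hemin (0.68, adjusted p = 0.529), at 18.5, 13.0 and 28.2 CPM in vehicle and 24.7, 27.3 and 43.4 with hemin. With IL-10 added it stood at 10.0, 14.9 and 27.8 CPM and with stattic added at 7.37, 7.30 and 59.9. Its last stattic value was the highest of the 12 libraries and came from the library with the steep length trend. Its groups overlapped in every comparison.

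Of 9 genes of the spindle, the kinetochore and the checkpoint, 1 fell with hemin (median -0.94), near the 9.15% of all genes that fell. Bub1b, for the checkpoint protein BUBR1, stood at 76.7, 54.7 and 95.9 CPM in vehicle, 31.1, 34 and 36.1 with hemin, 25.1, 29.5 and 38.1 with hemin and IL-10, and 13.7, 22.8 and 34.3 with stattic added. Every treated library lay below every vehicle library (hemin against vehicle -1.17, SE 0.32, edgeR adjusted p = 0.0234). The call was kept in 7 of 12 fits and lost without vehicle replicate 1 or 3 or any 1 of the hemin libraries (adjusted p from 0.0501 to 0.0883). Kif11, for the motor that separates the spindle poles, stood at 142, 113 and 227 CPM in vehicle and 42.6, 80.3 and 92.6 with hemin (-1.16, SE 0.41, edgeR adjusted p = 0.0653).

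The other spindle genes did not pass. Aurkb and Birc5, of the chromosomal passenger complex, had means of 52.5 ± 14.5 and 43.5 ± 12.4 CPM in vehicle and 21.8 ± 5.88 and 22.7 ± 7.61 with hemin, without overlap. Bub1 was at 55.1 ± 19.3 and 39.3 ± 12.4 CPM and Tpx2 at 157 ± 54.6 and 111 ± 16.4 CPM (SD, n = 3), with overlap. The centromere proteins Cenpe and Cenpf were low in 1 hemin library, with 27.9, 83.0 and 95.3 CPM for Cenpe and 27.7, 96.9 and 92.1 for Cenpf in replicates 1 to 3. Hemin replicate 1 is the library with the second steepest length trend.

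Cdc20, the activator of the anaphase-promoting complex, stood at 52.1, 47.1 and 82.6 CPM in vehicle and 66.4, 67.5 and 69.3 with hemin, with overlap (log2 change 0.16). Kif23 and Prc1, of the central spindle, also had hemin levels that overlapped with vehicle, at 34, 48.6 and 59.9 CPM for Kif23 and 120, 180 and 181 CPM for Prc1 against 42.0, 34.5 and 57.5 CPM and 126, 86.5 and 181 CPM in vehicle. The 4 members above 0 with hemin, Ccnb2, Cdc20, Kif23 and Prc1, are all G2/M genes, and the 21 G1/S genes were all below 0.

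Of the 5 cytokinesis genes, only Kif20a, a motor of the dividing cell's midzone, fell with hemin. It stood at 66.3, 64.2 and 103 CPM in vehicle and 31.6, 33.7 and 36.1 with hemin (-1.20, SE 0.37, edgeR adjusted p = 0.0371), a call lost without any 1 of the vehicle or hemin libraries (adjusted p from 0.0561 to 0.132). Anln, for the ring protein anillin, had means of 52.5 ± 12.2 and 35.8 ± 4.53 CPM, and Ect2, an activator of RhoA at the cleavage furrow, 59.2 ± 22.1 and 40.6 ± 8.88 CPM (SD, n = 3).

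Mki67 encodes Ki-67, the proliferation antigen that coats mitotic chromosomes. It stood at 629, 465 and 749 CPM in vehicle, 86.7, 310 and 224 with hemin, 118, 118 and 198 with hemin and IL-10, and 41.3, 146 and 69.1 with stattic added. All treated libraries were below all vehicle libraries (hemin against vehicle -1.57, SE 0.50, edgeR adjusted p = 0.0429). The call was lost without any 1 of the vehicle or hemin libraries or without IL-10 replicate 1 or 2 (adjusted p from 0.0503 to 0.119), and lost without hemin replicate 1 and stattic replicate 3 together (-1.21, adjusted p = 0.0896).

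Top2a, for the topoisomerase that untangles sister chromosomes, stood at 630, 445 and 742 CPM in vehicle, 207, 293 and 307 with hemin, 148, 176 and 248 with hemin and IL-10, and 68.0, 99.8 and 268 with stattic added. It too was lower in every treated library, and with hemin the difference missed the threshold (-1.17, SE 0.44, edgeR adjusted p = 0.0757).

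Other genes of the pathway, a list of 106 that excludes the 44, were all tested. With hemin 2 rose and 22 fell (11.7% of all genes rose and 9.15% fell), with a median change of -0.52. Leaving out vehicle replicate 1 gave 7 that fell, and leaving out vehicle replicate 3 gave 6. Leaving out the hemin libraries in turn gave 9, 8 and 13, and leaving out stattic replicate 3 gave 41. The shares of all genes that fell in these fits are given above. The 25 replication fork genes held 10 of the 22 (median -1.12). Among these, Fen1, a flap nuclease of lagging-strand synthesis, fell from 62.2 ± 21.3 to 14.2 ± 3.43 CPM (-2.13, SE 0.29, edgeR adjusted p = 0.000964), Chaf1a, a histone chaperone of new DNA, from 72.4 ± 29.8 to 14.7 ± 1.30 CPM (-2.30, adjusted p = 0.00311), and Rfc1, of the clamp loader, from 127 ± 24.9 to 58.6 ± 2.29 CPM (-1.12, adjusted p = 0.00311).

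Of 25 kinetochore, spindle and condensin genes 6 fell, led by Incenp (-1.30, edgeR adjusted p = 0.00391), Ncaph (-1.42, 0.00491) and Cit (-1.28, 0.0179), which encode a passenger protein, a condensin subunit and citron kinase. Of 15 mitotic kinase, phosphatase and proteolysis genes only Espl1, for separase, fell (-1.39, edgeR adjusted p = 0.0226). Of 17 origin genes, Cdc7 (-1.36, 0.0321) and Gins3 (-1.02, 0.0449) fell and Orc4, of the origin recognition complex, rose (0.91, 0.00964). Of 17 genes of the RB, E2F and MuvB group, Rbl2 (-0.67, 0.0393) and E2f2 (-1.47, 0.0449) fell. Of all genes tested, 9.15% fell and 11.7% rose. The counts that fell in the mitotic kinase set, the origin set and the RB, E2F and MuvB group were near that first share. The calls of Fen1, Chaf1a, Rfc1, Incenp and Ncaph held in each of the 12 fits that left out a library. That of Orc4 was lost without vehicle replicate 1 (0.0536), that of Cit in 3 of them (0.0526 to 0.0633), of Espl1 in 4 (0.0542 to 0.083), of Cdc7 in 5 (0.0552 to 0.107), and of Gins3 (0.051 to 0.17), Rbl2 (0.0509 to 0.137) and E2f2 (0.0517 to 0.197) in 8 each, all of them fits without a vehicle, hemin or IL-10 library.

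Among 7 CDK inhibitor genes, Cdkn1a, which encodes p21, rose (11.7% of all genes rose and 9.15% fell with hemin). It stood at 81.2, 108 and 96.0 CPM in vehicle, 1095, 780 and 150 with hemin, 1592, 926 and 288 with hemin and IL-10, and 1169, 446 and 284 with stattic added. All 9 treated libraries were above vehicle, and replicate 3 was the lowest of each treated group (hemin against vehicle 2.83, SE 0.76, edgeR adjusted p = 0.0221). This call was lost without any 1 of the vehicle libraries or hemin replicate 1 or 2 (adjusted p from 0.0648 to 0.0842), with limma (0.0509 and 0.0511) and without hemin replicate 1 and stattic replicate 3 together (0.0523). Cdkn2d fell (-1.07, adjusted p = 0.0463), a call kept only in the 3 fits without a stattic library, and Cdkn1b, for p27, stood at 116 ± 13.3 CPM in vehicle and 106 ± 3.58 with hemin (-0.14, adjusted p = 0.597).

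Cell type markers were measured in the same libraries, where 11.7% of all genes rose and 9.15% fell with hemin. The 8 OPC markers summed to 4645 to 6587 CPM in vehicle and 1751 to 2544 CPM with hemin, and 3 of 8 (Olig2, Sox10 and Gpr17) fell. Summed over 10 microglial markers, of which 9 were tested, the range was 6.09 to 23.1 CPM in vehicle and 26.1 to 111 CPM with hemin, and 2 of 9 rose. Over 8 fibroblast and vascular markers, of which 7 were tested, it was 5.03 to 7.98 and 51.5 to 163 CPM, and 5 of 7 rose. Over 6 neuronal markers it was 830 to 1085 and 783 to 1118 CPM, and 2 of 6 rose. Over 6 astrocyte markers it was 1975 to 5409 and 1682 to 2403 CPM, with none called, the lowest vehicle sum being that of replicate 3. Tmem119 was at 0 in 2 vehicle libraries and Aif1, Dcn, Lum and Cldn5 in 1 each, and Cldn5 also in 2 hemin libraries. Their part in the changes of the cell cycle genes was not tested.

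When IL-10 was added to hemin, no member passed the test against hemin alone, and 0% of all genes did. The median change was -0.32 over the 44 genes, -0.19 over G1/S and -0.50 over G2/M genes, against -0.01 over all genes, and 39 of 44 were below 0 (50.8% of all genes). At an unadjusted p under 0.05, no member was lower or higher by edgeR, against 1.87% of all genes lower and 0.544% higher; DESeq2 and limma also called no member. The groups of 3 did not overlap for 5 members that were lower (Rrm1, Cdk1, Cdc20, Tpx2 and Prc1; 5.09% of all genes) and 1 that was higher (Plk1; 3.62%). Without IL-10 replicate 3 the median was -0.56 over the 44 genes and -0.50 over G1/S genes, and without IL-10 replicate 1 it was -0.22 and -0.10.

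The members with the smallest adjusted p in that comparison were Kif23 (-0.60, SE 0.34), Kif11 (-0.61, SE 0.41), Foxm1 (-0.56, SE 0.42) and Cenpe (-0.62, SE 0.47), each at an edgeR adjusted p of 0.999. The 95% confidence interval ran from -1.33 to 0.14 for Kif23. For the genes followed throughout, the differences were 0.58 (SE 0.45) for Ccnd1, 0.16 (SE 0.48) for Ccnd2, -0.13 (SE 0.35) for Ccnd3 and -0.27 (SE 0.40) for Cdk4. They were -0.03 (SE 0.39) for E2f1, -0.10 (SE 0.35) for Mcm2, -0.17 (SE 0.31) for Pcna and -0.39 (SE 0.38) for Rrm2. In the G2/M group they were -0.15 (SE 0.46) for Ccnb1, -0.42 (SE 0.54) for Cdk1, -0.50 (SE 0.43) for Top2a and -0.52 (SE 0.49) for Mki67, every one of these 12 at an adjusted p of 0.999 or above.

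In this pair of groups the same-numbered libraries deviated together. With the replicate number as a block the number of members called was still 0 and the median change was -0.39. In that fit 4 members were lower at an unadjusted p under 0.05 (3.49% of all genes). Cdk1 and Rrm1 were lower in all 3 IL-10 libraries than in any hemin library, with 39.3, 40.7 and 44.1 against 55.2, 58.2 and 52.4 CPM for Cdk1 and 71.3, 77.8 and 93.2 against 107, 114 and 104 CPM for Rrm1. Plk1 was higher, with 29.7, 29.6 and 37.5 against 28.9, 27.6 and 29.0 CPM. None of these differences had an unadjusted p under 0.05 by edgeR in the main fit of the 12 libraries, without the block. The summed microglial markers were 10.3 to 28.9 CPM with IL-10 and the summed OPC markers 1374 to 2307 CPM, and their part was not tested.

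Stattic added to hemin and IL-10 gave no call against hemin and IL-10, among the 44 genes or among all genes (0%). The median was -0.22 over the 44 genes, -0.05 over G1/S and -0.39 over G2/M genes, against 0.02 over all genes, and 30 of 44 were below 0 (48% of all genes). At an unadjusted p under 0.05, 3 members were lower and none higher (0.73% of all genes lower, 3.01% higher), all of them G2/M genes. The 3 were Anln, Cenpf and Cenpe, and DESeq2 and limma called no member after adjustment. Their transcripts were long, at 5047, 10801 and 7813 bases, against a median of 3138 over all genes tested. Stattic replicate 3 is the library in which long transcripts were lowest, and the part of this trend in these differences was not tested. With the length correction, 3 members were lower at an unadjusted p under 0.05 (0.759% of all genes).

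Anln stood at 27.3, 34.6 and 39.8 CPM with hemin and IL-10 and 17.6, 16.4 and 18.8 CPM with stattic added, with 3 close values in the stattic group (-0.94, SE 0.23, edgeR adjusted p = 0.921). Cenpf stood at 45.4, 48.4 and 63.0 against 11.3, 34.1 and 22.9 CPM (-1.20, SE 0.46, adjusted p = 0.921), and Cenpe at 31.4, 34.7 and 68.1 against 10.6, 28.8 and 20.0 CPM (-1.17, SE 0.47, adjusted p = 0.921). In these genes all 3 stattic libraries lay below all 3 IL-10 libraries, as they did in Ccnd1 (2.21% of all genes were lower and 3.15% higher without overlap). Ect2 overlapped, at 23.3, 29.4 and 36.7 against 9.43, 17.5 and 26.6 CPM (-0.74, SE 0.38, adjusted p = 0.921).

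The differences with stattic were -0.65 (SE 0.45) for Ccnd1, -0.76 (SE 0.48) for Ccnd2, -0.09 (SE 0.35) for Ccnd3 and 0.74 (SE 0.40) for Cdk4. They were -0.07 (SE 0.39) for E2f1, -0.02 (SE 0.35) for Mcm2, 0.36 (SE 0.31) for Pcna and -0.21 (SE 0.38) for Rrm2. For the G2/M genes they were -0.36 (SE 0.47) for Ccnb1, 0.11 (SE 0.54) for Cdk1, -0.39 (SE 0.43) for Top2a and -0.76 (SE 0.49) for Mki67. The adjusted p of these 12 genes ran from 0.921 to 0.993.

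The size and direction of this comparison rested on single libraries. Without stattic replicate 3 the median was -0.77 over the 44 genes, -0.51 over G1/S and -1.09 over G2/M genes, 42 of 44 were below 0, and 21 were lower at an unadjusted p under 0.05 (1.63% of all genes), still with no call. Without stattic replicate 1 the median was 0.06 and without replicate 2 it was 0.00, and without IL-10 replicate 3 it was -0.12. Stattic replicate 3 was the highest of its group for 37 of the 44 genes, and replicate 1 was the lowest of all 12 libraries for 31. Cdk1 shows the spread, at 15, 21.1 and 98.3 CPM, as do Cdc20, at 17.1, 22.3 and 132 CPM, and Aurkb, at 3.46, 6.81 and 30.4 CPM.

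**Figure D4:**
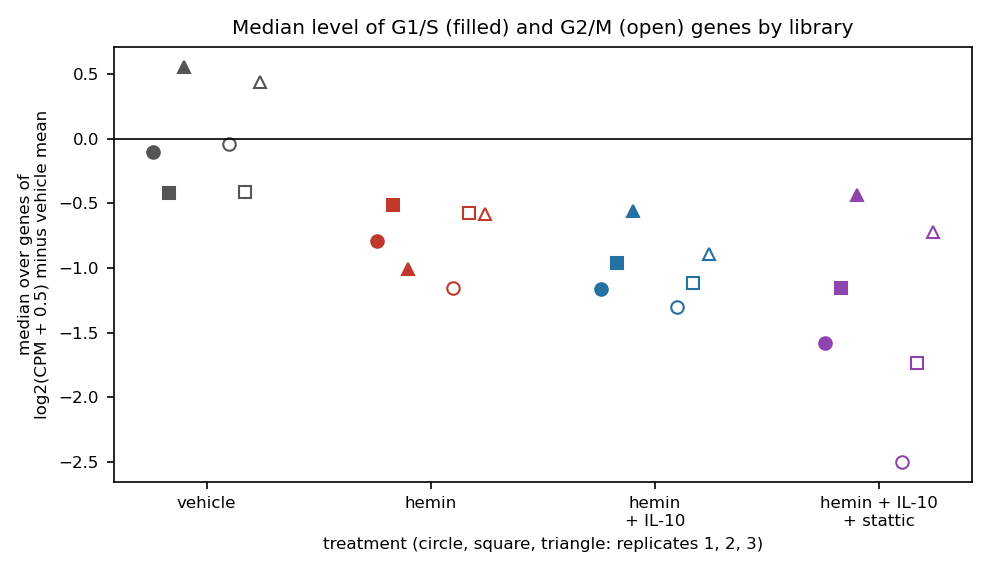
Median over the 21 G1/S genes (filled) and the 23 G2/M genes (open) of log2(CPM + 0.5) minus the vehicle mean, for each of the 12 libraries (circle, square and triangle for replicates 1, 2 and 3). The hemin-treated libraries all lie at or below -0.44, and the 3 libraries with stattic span -2.50 to -0.72 for G2/M and -1.58 to -0.44 for G1/S genes.

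By library, the G2/M medians were -1.15, -0.58 and -0.58 with hemin, -1.30, -1.12 and -0.89 with hemin and IL-10, and -2.50, -1.73 and -0.72 with stattic added, relative to the vehicle mean. The G1/S medians were -0.79, -0.51 and -1.01, then -1.16, -0.96 and -0.56, then -1.58, -1.16 and -0.44. The vehicle libraries themselves ranged from -0.41 to 0.48 over all 44 genes. Over all 44 genes, every treated library thus had a lower median than every vehicle library, and the treated groups overlapped with each other.

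Against hemin alone, the libraries with IL-10 and stattic had 0 members and 0% of all genes called. The median was -0.46 over the 44 genes (-0.22 for G1/S and -0.72 for G2/M genes; 0.04 over all genes), and 40 of 44 were below 0 (45% of all genes). At an unadjusted p under 0.05, 7 members were lower and none higher, all 7 in the G2/M group (1.63% of all genes lower, 1.81% higher). The smallest adjusted p, 1 in each case, belonged to Anln (-1.02, SE 0.23), Cenpe (-1.79, SE 0.48), Cenpf (-1.66, SE 0.47) and Kif23 (-1.08, SE 0.34). Kif23, Anln and Ect2 did not overlap between the groups (2.25% of all genes were lower and 2.91% higher without overlap).

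Here too the same-numbered libraries deviated together. With the replicate block the count of calls was 0, the median -0.68 and the members lower at an unadjusted p under 0.05 numbered 19 (2.90% of all genes). Without stattic replicate 3 the median was -1.12 (-0.59 for G1/S and -1.51 for G2/M genes) and 28 members were lower at an unadjusted p under 0.05 (4.86% of all genes). Without stattic replicates 1 and 2 in turn the medians were -0.24 and -0.31. The 12 genes followed throughout had an adjusted p of 1 each, with differences from -1.27 (SE 0.50) for Mki67 and -0.89 (SE 0.43) for Top2a, through -0.60 (SE 0.38) for Rrm2, -0.59 (SE 0.48) for Ccnd2, -0.52 (SE 0.47) for Ccnb1 and -0.31 (SE 0.54) for Cdk1, to 0.47 (SE 0.40) for Cdk4. The remaining 5 were Ccnd3 (-0.22, SE 0.35), Mcm2 (-0.12, SE 0.35), E2f1 (-0.10, SE 0.39), Ccnd1 (-0.07, SE 0.45) and Pcna (0.19, SE 0.31).

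Compared with vehicle, 16 of 44 genes fell with hemin and IL-10 and none rose (8.81% of all genes fell). They were 8 G1/S genes (Ccne1, Ccne2, Cdc6, Mcm3, Rrm1, Rrm2, Tyms and Tk1) and 8 G2/M genes (Ccna2, Foxm1, Bub1b, Cenpf, Kif11, Kif20a, Mki67 and Top2a). The median was -1.05 (-0.97 for G1/S and -1.10 for G2/M genes), against 0.00 over all genes, and 43 of 44 were below 0 (49.8% of all genes), Ccnd1 being the exception. In 30 members the groups did not overlap, with IL-10 lower (24.4% of all genes), and in Ccnd1 IL-10 was higher (24.9%). With vehicle replicate 3 left out, the median was -0.73 (-0.63 for G1/S and -0.84 for G2/M genes), against 0.04 over all genes. In that fit 39 of 44 were below 0.

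By role, 4 of the 5 clamp and nucleotide genes (median -1.78), both Mki67 and Top2a (-1.88), 2 of 4 in the cyclin E group (-1.21), 2 of 7 licensing genes (-0.92), 3 of 9 spindle genes (-1.29), 2 of 7 mitotic entry genes (-1.05), 1 of 5 cytokinesis genes (-0.63) and 0 of 5 D-type cyclin genes (-0.25) fell. The smallest adjusted p were those of Rrm2 (-2.11, SE 0.39, edgeR adjusted p = 0.00458), Foxm1 (-2.10, SE 0.43, 0.00716), Tk1 (0.00725, above) and Rrm1 (-1.78, SE 0.42, 0.0125). These 4 calls held in each of the 12 fits that left out a library. Mki67 was at -2.09 (SE 0.51, 0.015), a call lost without vehicle replicate 3 or IL-10 replicate 1 or 2 (adjusted p from 0.0508 to 0.0663). Top2a was at -1.67 (SE 0.44, 0.0214), a call lost with a length correction (0.0503) and without vehicle replicate 1 or 3 or IL-10 replicate 1 or 2 (adjusted p from 0.0613 to 0.0758).

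Genes that did not pass against vehicle with IL-10 included E2f1 (-1.06, SE 0.39, edgeR adjusted p = 0.0735), Mcm2 (-0.83, SE 0.35, 0.112), Cdk1 (-1.13, SE 0.55, 0.161), Ccnb1 (-0.90, SE 0.47, 0.189) and Pcna (-0.53, SE 0.31, 0.249). Cdk4 was at -0.33 (SE 0.40, 0.587) and Ccnd3 at -0.25 (SE 0.35, 0.655). The count of 16 became 6 when vehicle replicate 1 was left out, 4 for vehicle replicate 3, 5 and 4 for IL-10 replicates 1 and 2, and 27 for stattic replicate 3. In these fits 3.35%, 4.16%, 4.45%, 2.97% and 12.8% of all genes fell, in that order.

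With hemin, IL-10 and stattic, 24 of 44 genes fell against vehicle and none rose (10.2% of all genes fell). They were 9 of 21 G1/S genes (Ccnd2, Ccne1, Ccne2, Cdc6, Mcm3, Mcm4, Rrm1, Rrm2 and Tk1) and 15 of 23 G2/M genes (Ccna2, Foxm1, Plk1, Aurka, Bub1b, Aurkb, Cenpe, Cenpf, Kif11, Tpx2, Kif20a, Anln, Ect2, Mki67 and Top2a). The median was -1.38 (-0.90 for G1/S and -1.57 for G2/M genes), against 0.10 over all genes, and 41 of 44 were below 0 (45.2% of all genes). The groups did not overlap for 28 members, all lower (19.6% of all genes). With vehicle replicate 3 left out, the median was -1.11 (-0.66 for G1/S and -1.38 for G2/M genes), against 0.12 over all genes. In that fit 39 of 44 were below 0.

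By role, 6 of 9 spindle genes (median -1.68), 3 of 5 cytokinesis genes (-1.57), 4 of 7 mitotic entry genes (-1.27), both Mki67 and Top2a (-2.45), 3 of 5 clamp and nucleotide genes (-1.62), 2 of 4 in the cyclin E group (-1.37), 3 of 7 licensing genes (-0.86) and 1 of 5 D-type cyclin genes (-0.34) fell. The smallest adjusted p were those of Anln (-1.57, SE 0.23, edgeR adjusted p = 0.00156), Rrm2 (-2.32, SE 0.40, 0.00291), Tk1 (0.00318, above) and Cenpf (-2.63, SE 0.48, 0.00381). Mki67 was at -2.84 (SE 0.52, 0.00394) and Top2a at -2.06 (SE 0.45, 0.0083). In these 6 genes no stattic library reached a vehicle library, and the 6 calls held in each of the 12 fits.

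The genes that did not pass included E2f1 (-1.13, SE 0.39, edgeR adjusted p = 0.0539), Ccnb1 (-1.27, SE 0.47, 0.0681), Mcm2 (-0.86, SE 0.35, 0.0949), Cdk1 (-1.02, SE 0.55, 0.188), Pcna (-0.17, SE 0.31, 0.724), Ccnd3 (-0.34, SE 0.35, 0.509) and Ccnd1 (-0.14, SE 0.45, 0.849). Cdk4 was at 0.41 (SE 0.40, 0.477), and at -0.15 without stattic replicate 3. The count of 24 became 38 without stattic replicate 3, when all 44 were below 0 and the G2/M median was -2.28, and 15, 13 and 15 without vehicle replicate 1, vehicle replicate 3 and stattic replicate 2. In these fits 12.1%, 4.85%, 5.13% and 7.69% of all genes fell, in that order. The summed markers in the stattic libraries were 727 to 1849 CPM for OPCs, 39.7 to 110 CPM for microglia and 33.1 to 66.5 CPM for fibroblasts and vessels, and their part was not tested.

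**Figure D5:**
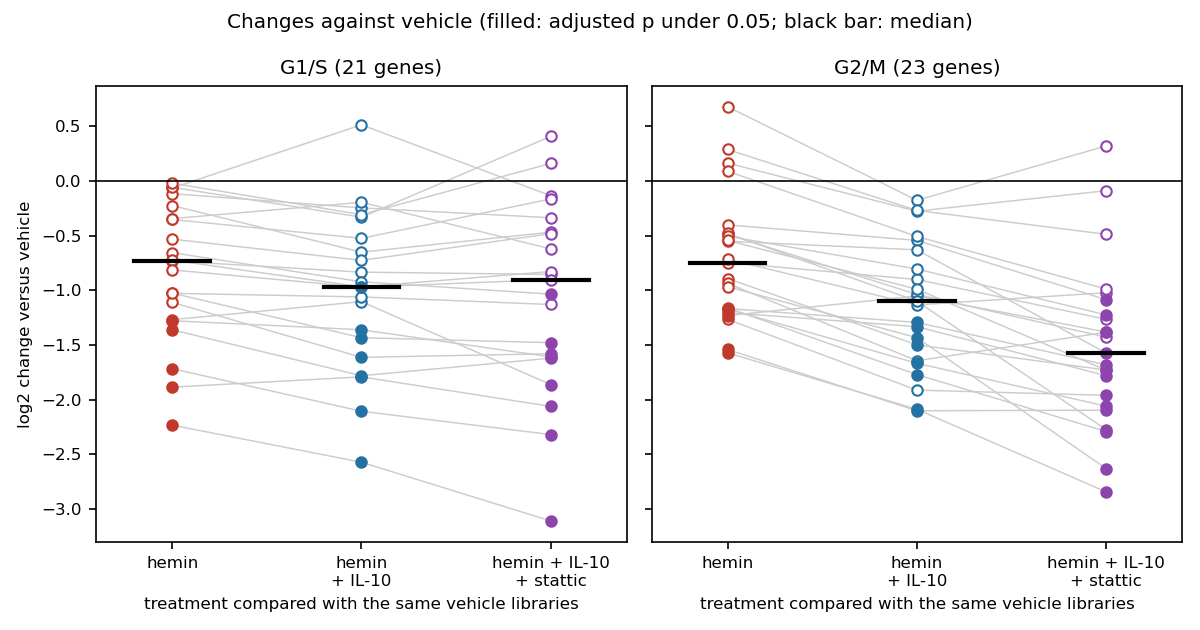
Fitted log2 change against vehicle of each G1/S gene (left) and G2/M gene (right) with hemin, hemin with IL-10, and hemin with IL-10 and stattic; lines join 1 gene, filled points passed an adjusted p of 0.05, and black bars are medians. The 3 comparisons share the same vehicle libraries. The G1/S medians are -0.73, -0.97 and -0.90 and the G2/M medians are -0.75, -1.10 and -1.57.

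The 3 comparisons with vehicle share their vehicle libraries, so their values are set side by side and not counted as separate evidence. The G1/S count was 5, 8 and 9 of 21 and the G2/M count 5, 8 and 15 of 23. Of all genes, 9.15%, 8.81% and 10.2% fell in these comparisons. Among the genes that did not fall with hemin alone and fell with IL-10 and stattic added, Cenpe was at -0.48, -1.10 and -2.27, Ect2 at -0.55, -0.99 and -1.73, and Anln at -0.55, -0.63 and -1.57. Their transcripts, at 7813, 4042 and 5047 bases, were longer than the median of 3138 over all genes tested. The part of the length trend of stattic replicate 3 in these values was not tested. Ccne1 was at -1.89, -1.79 and -2.06 and Plk1 at -1.23, -1.05 and -1.38, with little difference between treatments. No difference between the treated groups passed the test for any of the 44 genes.

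The other 106 pathway genes gave 2 that rose and 35 that fell with hemin and IL-10 (median -0.84) and 3 that rose and 38 that fell with stattic added (median -0.87), against vehicle. Of all genes, 12.1% rose and 8.81% fell with hemin and IL-10, and 14.7% rose and 10.2% fell with stattic added. Of the 25 kinetochore, spindle and condensin genes, 6, 10 and 14 fell in the 3 treatments, and of the 25 replication fork genes 10, 14 and 10. Cdkn1a rose in the other treatments as well (3.30, edgeR adjusted p = 0.0132, and 2.73, adjusted p = 0.0227). The first of these calls was lost without vehicle replicate 1 or 3 (adjusted p from 0.0517 to 0.0608), the second without any 1 of the vehicle libraries or stattic replicate 1 (0.0642 to 0.0844). The 35 became 14 and 9 without vehicle replicates 1 and 3 and 9 and 8 without IL-10 replicates 1 and 2, and the 38 became 18 without vehicle replicate 3 and 65 without stattic replicate 3. For these fits too, the shares of all genes that fell are given above. None of the 106 was called between treated groups.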

How the data were processed

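RNA-seq of 12 libraries, 3 in each of 4 treatment groups, was analysed from the deposited gene tables. The libraries came from total RNA with dUTP in the second strand and were read on DNA nanoballs, per the labels' protocols. RSEM, Bowtie, Bowtie2, HISAT, Cufflinks, StringTie, TopHat and CASAVA appear in the submitters' processing notes, with neither version nor role, and the genome build was left out (not given in the sources used here). The deposited files hold, per the file headers, the authors' expected counts (estimated reads per gene, not normalised) and FPKM values. Each file lists only genes above 0, and a gene not listed was taken as 0. Use of strand in counting is not stated.

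Expected counts were rounded and tested with the quasi-likelihood test of edgeR 4.0.16 in R 4.3.3 (filterByExpr, TMM, robust, all 12 libraries, 1 mean per group), after a check on simulated data. p-values were adjusted over 13967 genes by Benjamini-Hochberg, and an adjusted p under 0.05 is a call. CPM are TMM-scaled; values are mean ± SD, and confidence intervals are 95%. Alternatives used DESeq2 1.42.0, limma 3.58.1 on log2(FPKM + 1) and log2(FPKM + 0.1), other scalings, no filter, a replicate block, fits of 2 groups, a length correction, and each library left out in turn.

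Changes, SEs and adjusted p are given, in hemin against vehicle, for up to 6 G1/S and 6 G2/M genes with the smallest adjusted p, in each other comparison for the 4 smallest, and always for Ccnd1, Ccnd2, Ccnd3, Cdk4, E2f1, Mcm2, Pcna, Rrm2, Ccnb1, Cdk1, Top2a and Mki67; of the other pathway genes, for up to 3 called genes per set, Cdkn1a and Cdkn1b. Other genes given with values were picked after these were seen. The members and lists were chosen with earlier results of these data known. Same-numbered libraries deviated together in hemin with IL-10 against hemin (correlations 0.39, 0.17 and 0.62) and in stattic against hemin (0.35, 0.40 and 0.16). The correlations were 0.67, -0.06 and 0.49 for stattic against IL-10, and 0.05, 0.20 and 0.38 for IL-10 against vehicle. The labels do not say what a number means, so the main fit, with its SEs and p-values, had no pairing. The replicate block was run only as an alternative. Any 2 replicates of a group differed by more than counting error (chi-square of 14.6 to 176 per degree of freedom). Settings for the other pathway genes were added after seeing the data.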

Additional observations from a re-analysis of the deposited data

How the results depend on the processing

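No member was called higher, and none was called between treated groups, under any alternative run. Against vehicle, the 10 genes that fell with hemin became 16 with DESeq2 and 20 in a fit of these 2 groups; the 16 with IL-10 became 27 with the replicate block, 27 in a fit of 2 groups and 27 without hemin replicate 1 and stattic replicate 3, which have the steepest length trends; the 24 with stattic became 14 in a fit of 2 groups and 37 without those 2 libraries. Of all genes, 12.4% and 15.9% fell in these fits with hemin, in the order named. With IL-10 the shares were 13.1%, 14.5% and 13.9%, and with stattic 5.25% and 13.1%. Leaving out each library in turn gave 1 to 19, 4 to 27 and 13 to 38 members. The other pathway genes that fell, 22 with hemin, became 35 with DESeq2, 35 with the block and 41 in a fit of 2 groups. With stattic, 38 became 58 with either limma fit, 21 in a fit of 2 groups and 65 without those 2 libraries. In the limma fits 18.6% and 18.3% of all genes fell with stattic. Leaving out a library gave 6 to 41, 8 to 50 and 18 to 65. Of all genes, 3.11% to 13.8%, 2.97% to 12.8% and 4.85% to 12.1% fell when a library was left out. The cause was not tested. Other settings stayed within 1.5 times the count. Correlations of same-numbered libraries were 0.14, 0.06 and 0.31 for hemin against vehicle and 0.20, 0.09 and 0.28 for stattic against vehicle. The block gave 15 and 32 calls for these comparisons (13.1% and 14.2% of all genes fell), and the calls between treated groups stayed at 0. The block moved the members lower at an unadjusted p under 0.05 from 0 to 4 (IL-10 against hemin), 3 to 5 (stattic against IL-10) and 7 to 19 (stattic against hemin). The shares of all genes moved from 1.87% to 3.49%, 0.73% to 1.71% and 1.63% to 2.90%. Scaling by library totals moved the median of all genes from 0.03 to -0.07, 0.00 to -0.13 and 0.10 to -0.14 and those of the members to -0.85, -1.17 and -1.68. Over all 44 members and 6 comparisons, settings other than leaving out a library gave 2370 changes with the same direction and side of the threshold, 158 newly past it, 20 that lost it, 86 of the opposite sign and 6 with no adjusted p. The lost calls included 10 of 24 with stattic in the fit of 2 groups, and the length correction kept 9 of 10, 12 of 16 and 21 of 24. The median for stattic against IL-10 moved from -0.22 to between -0.35 and -0.54 with library totals, the limma fits or the block, and that for stattic against hemin from -0.46 to -0.78 and -0.87 with the limma fits. Among other pathway genes, Cdc7, Gins3, Espl1, Rbl2 and E2f2 lost their call with hemin under at least 1 such setting, and Cdkn1b, not called with hemin, was at 0.0052 and 0.0054 with the limma fits.

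None of the changes of sign, over all members, touched a called gene. Values follow only for the members whose changes the text gives by rule, and other members changed sign too. With the length correction they were Ccnd1 for hemin against vehicle (0.040), Mcm2 (0.0012) and Pcna (-0.049) for stattic against IL-10, Cdk4 for stattic against vehicle (-0.13) and Pcna for stattic against hemin (-0.091). Without hemin replicate 1 and stattic replicate 3 they were Pcna (-0.072) and Cdk1 (-1.21) for stattic against IL-10, Cdk4 for stattic against vehicle (-0.15), and Ccnd1 (0.53), Cdk4 (-0.056) and Pcna (-0.18) for stattic against hemin. Cdk1 for stattic against IL-10 was -0.10 with library totals, -0.41 and -0.49 with limma on log2(FPKM + 1) and log2(FPKM + 0.1) and -0.20 with the replicate block, and Pcna for stattic against hemin was -0.010 with either limma fit.

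Leaving out a library changed the sign in 119 cases over all members and comparisons, and gave these ranges for the members named by rule. For hemin against vehicle they were -0.68 to 0.28 for Ccnd1 and -0.20 to 0.014 for Ccnd3. For IL-10 against hemin they were -0.12 to 0.35 for Ccnd2, -0.48 to 0.10 for Ccnd3, -0.70 to 0.015 for Cdk4, -0.21 to 0.18 for E2f1 and -0.35 to 0.031 for Mcm2. For stattic against IL-10 they were -0.63 to 0.27 for Ccnd3, -0.51 to 0.20 for E2f1, -0.51 to 0.23 for Mcm2, -0.072 to 0.59 for Pcna, -0.78 to 0.069 for Rrm2, -1.39 to 0.0072 for Ccnb1 and -1.21 to 0.53 for Cdk1. For stattic against vehicle they were -0.52 to 0.17 for Ccnd1, -0.15 to 0.70 for Cdk4 and -0.59 to 0.10 for Pcna. For stattic against hemin they were -0.44 to 0.53 for Ccnd1, -0.74 to 0.028 for Ccnd3, -0.071 to 0.77 for Cdk4, -0.52 to 0.17 for E2f1, -0.59 to 0.10 for Mcm2, -0.22 to 0.42 for Pcna and -1.61 to 0.11 for Cdk1.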
